A study of Mus musculus with 40 samples.

Results

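mmu-miR-10a-5p and mmu-miR-10b-5p are the mature microRNAs cut from the 5′ arms of the 2 mir-10 hairpins, each of which lies inside a Hox gene cluster of the mouse. They are 2 of the 1915 mature microRNA rows in the count table, were picked by name, and were selected on measured values, since their changes over age, the higher miR-10a-5p at 16.5 than at 12 months among them, were known when they were chosen. Their levels are therefore given as a description, with folds and standard errors and no p-value. Counts of their calls in the main fit stand only beside the share called over all microRNAs. Counts under other settings show only the dependence on processing, and nothing about the members is read from them. The libraries were made from total blood of male C57B/6J wild-type mice at 12 months of age and again at 13.5, at 15 and at 16.5 months, with 10 libraries at each age. Blood came from the retro-orbital sinus of the same mice at every age, under isoflurane. The mice were kept either in the home cage or in water maze training, and the labels do not say to which of these a library belongs. The study's text places the earliest blood before any behaviour in one passage and after a habituation training in another. Age, number of earlier bleedings and training history therefore cannot be told apart in any comparison of these ages.

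MicroRNAs are short RNAs that, loaded into an Argonaute protein, bind messenger RNAs and lower their translation or stability. Pairing is set mainly by the seed, bases 2 to 8 of the mature strand, so microRNAs with the same seed are placed in one targeting group. The mir-10 genes are conserved neighbours of Hox genes in bilaterian animals, and their products are known to target Hox messages and to be expressed in haematopoietic cells.

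The mature strands are shown because the comparison turns on telling apart 2 strands that are nearly identical. Each is written 5′ to 3′ from RefSeq (GRCm38.p6), with the seed in capitals.
miR-10a-5p: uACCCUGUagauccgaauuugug
miR-10b-5p: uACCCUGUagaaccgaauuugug
miR-99a-5p: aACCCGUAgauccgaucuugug
miR-100-5p: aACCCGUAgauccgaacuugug
miR-125b-5p: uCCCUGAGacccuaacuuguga
Both members have 23 bases and differ by the single substitution U12A, counted from 1 at the 5′ end with the base of miR-10a-5p first. They hold the seed ACCCUGU, which no other of the 1679 mature names in the reference table carries. Reads were matched to precursors with 0 mismatches, per the study's methods, so a read over position 12 could be given to 1 member only. In the count table no other row equalled a row of either member. The miR-99, miR-100 and miR-125 strands belong to the same miRBase family but have other seeds, ACCCGUA and CCCUGAG, and are used below as relatives. The longest run that miR-10a-5p shares with miR-100-5p has 11 bases.

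The Mir10a hairpin lies on the plus strand at chr11:96317165-96317274 (GRCm38), between Hoxb5 and Hoxb4 and outside both, 992 bases upstream of Hoxb4. Mir10b lies on the plus strand at chr2:74726070-74726137, inside an intron of 1 annotated Hoxd3 transcript and 2 annotated Hoxd4 transcripts.

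The libraries held 2469196 to 21386209 counts, with the lowest median total, 6196820, at 15 months. Most counts belonged to miR-486, the abundant red cell microRNA, whose a and b rows hold the same reads counted in both. Between 93002 and 1739959 counts per library lay outside these rows. A single library of 16.5 months stood apart in its connectivity to the others, the standardized sum of its correlations with them (Z = −3.27), and held the lowest total of all. Column names at 13.5 and at 15 months have forms of their own, so a library series and the age cannot be told apart there. The markers of the labelled tissue were present to unlike degrees. The red cell list held at least 1190234 reads in every library, the lymphoid list at least 500 and the myeloid list at least 16. The endothelial and platelet list held 0 to 138. Of the markers of other tissues miR-1a-3p and miR-206-3p were at 0 throughout while miR-122-5p reached at most 3 reads. Others were present: the skeletal muscle list, through its remaining marker miR-133a-3p, held 0 to 233 reads per library, the epithelium and skin list 3 to 1376 and the smooth muscle and stroma list 2 to 2009.

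miR-10a-5p was among the most abundant microRNAs of the blood. It took place 12 of all 1915 rows by mean share of the library total, and between places 9 and 17 in single libraries. These are places among rows, in which the miR-486 a and b rows, holding the same reads, are counted separately. In raw counts its lowest, median and highest libraries were 8082, 14582 and 27274 at 12 months, 9030, 12321 and 26404 at 13.5 months, 1524, 5575 and 9553 at 15 months, and 1281, 14515.5 and 44948 at 16.5 months. These counts follow the depth of the libraries, so levels were also expressed as CPM, counts put on a common library size and scaled by TMM factors, edgeR's correction for differences in RNA composition.

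On that scale the lowest, median and highest libraries of miR-10a-5p were 767, 934 and 1266 at 12 months and 925, 1356 and 2500 at 16.5 months. At 13.5 months they were 753, 1185 and 1471, and at 15 months 861, 1196 and 1533. The median was highest at 16.5 and lowest at 12 months, but the ranges of these ages overlapped: 9 of 10 libraries of 16.5 months lay above the 12-month mean and 7 of 10 above the highest 12-month library. The means were 962 ± 181, 1151 ± 254, 1193 ± 239 and 1542 ± 478 CPM in order of age (SD, n = 10 each). The spread was widest at 16.5 months, where 4 libraries exceeded every library of the other ages.

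The edgeR estimate for miR-10a-5p at 16.5 against 12 months was a log2 fold change of 0.68 (SE 0.15), 1.60-fold on the linear scale. Against 13.5 months it was 0.42 (SE 0.15) and against 15 months 0.37 (SE 0.15). Steps among the younger ages were smaller: 0.26 from 12 to 13.5 months, 0.31 from 12 to 15 months and 0.05 from 13.5 to 15 months, each with an SE of 0.15. The order of the mean levels thus followed age, and 13.5 and 15 months did not differ beyond their spread. As a share of the reads outside miR-486, which needs no scaling factor, miR-10a-5p held 1.65% ± 0.278, 2.04% ± 0.533, 2.06% ± 0.475 and 2.53% ± 0.827 in the same order (SD, n = 10 each).

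**Figure D1:**
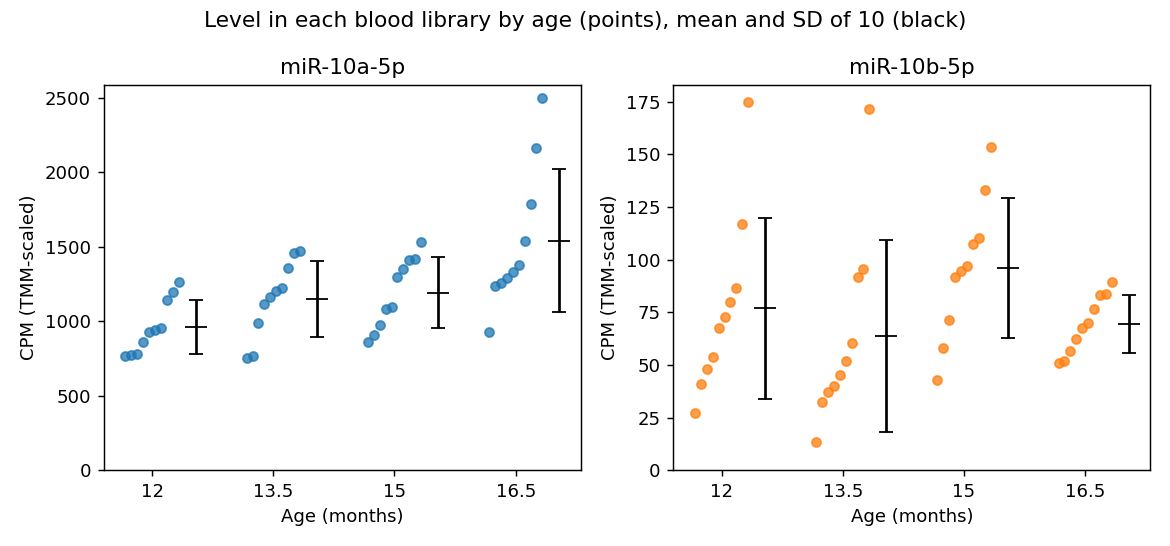
CPM (TMM-scaled, linear axis) of miR-10a-5p and miR-10b-5p in each of the 10 libraries of every age, with points sorted within an age and the mean and SD in black. miR-10a-5p reaches 2500 at 16.5 months, while the miR-10b-5p libraries at 12 and 13.5 months spread widely and those at 16.5 months lie between 51.1 and 89.5.

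At an adjusted p under 0.05 in edgeR's quasi-likelihood test, 1 of the 2 members, miR-10a-5p, was called over age, where 61.0% of the 105 microRNAs tested were called. The same member was called at 16.5 against 12 months (background 23.8%) and at 16.5 against 13.5 months (background 40%). The former call was lost under 1 of the 12 alternatives, library totals, and the latter under 3, library totals, the low filter and no filter. Neither member was called at 13.5 against 12 months (background 29.5%), 15 against 12 months (background 23.8%), 15 against 13.5 months (background 47.6%) or 16.5 against 15 months (background 28.6%). Since the members were chosen with these contrasts known, nothing is read from the counts.

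The lymphocyte markers tested were, like miR-10a-5p, higher at the last age than at the first. Of the 3 in the list, miR-150-5p and miR-342-3p were tested. At 16.5 against 12 months miR-150-5p rose by 0.86 (SE 0.30, adjusted p = 0.02729) and miR-342-3p by 1.10 (SE 0.19, adjusted p = 5.709e-05, edgeR). In that comparison 23.8% of all microRNAs tested were called. Over age both tested lymphoid markers were called, as were 3 of the 6 red cell rows tested and 0 of the 1 myeloid marker tested, miR-223-3p (adjusted p = 0.07504, edgeR), beside 61.0% of all microRNAs tested. The red cell rows called were miR-144-5p and the miR-486a-5p and miR-486b-5p rows, which count the same reads, so they are not separate markers. The summed lymphoid list ran from 101 to 374 CPM at 12 months and from 137 to 873 at 16.5 months. Its medians were 243, 373, 294 and 357 CPM in order of age, without the steady order of the miR-10a-5p means. Over the 40 libraries its correlation with miR-10a-5p was −0.16 (Pearson, log2 scale, given as a description of libraries that share depth and composition). For the other lists the correlation was 0.21 (myeloid), 0.09 (smooth muscle and stroma), −0.02 (endothelial and platelet), −0.10 (epithelium and skin), −0.19 (red cell), −0.30 (liver) and −0.41 (skeletal muscle). The part of lymphocyte numbers in the level of miR-10a-5p was not tested, and in whole blood a change in cells of a type and one in RNA per cell cannot be told apart.

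miR-10b-5p was scarcer and more variable. It took place 51 of the 1915 rows by mean share of the library total, and between places 34 and 92 in single libraries. Its lowest, median and highest raw counts were 284, 1249.5 and 4020 at 12 months, 218, 787.5 and 1097 at 13.5 months, 148, 368.5 and 1036 at 15 months, and 106, 649 and 1618 at 16.5 months. Every library thus held over 100 reads of it, and the lowest counts carry the most counting error.

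In CPM the lowest, median and highest libraries of miR-10b-5p were 27.3, 70.1 and 175 at 12 months and 13.5, 48.5 and 172 at 13.5 months. At 15 months they were 42.7, 95.7 and 153, and at 16.5 months 51.1, 68.7 and 89.5. The ages overlapped, with the highest median at 15 months and the narrowest range at 16.5 months. The means were 76.8 ± 42.8, 63.9 ± 45.6, 96.0 ± 33.2 and 69.3 ± 13.8 in order of age (SD, n = 10 each). Within an age the pooled SD on the log2 scale was 0.70 for miR-10b-5p and 0.34 for miR-10a-5p, and for miR-10b-5p it went from 1.0 at 13.5 months to 0.29 at 16.5 months.

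No steady course over age was seen for miR-10b-5p. Its log2 fold changes were −0.27 from 12 to 13.5 months, 0.59 from 13.5 to 15 months and −0.47 from 15 to 16.5 months, each with an SE of 0.30. At 16.5 months all 10 libraries lay below the 15-month mean, although none lay below the lowest 15-month library. This last step turned to 0.15 with library totals alone, where the median of all microRNAs tested was 0.65. Between the first and the last age the estimate was −0.15 (SE 0.30), with an approximate 95% interval from −0.74 to 0.44. From 12 to 15 months the estimate was 0.32 (SE 0.30).

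A single 12-month library bore on the values of miR-10b-5p. It held 4020 reads of miR-10b-5p, 175 CPM and the highest level of all 40 libraries, where the next library of its age had 117. The same library held 2009 reads of miR-143-3p and miR-145a-5p, the smooth muscle and stroma markers, at 87.4 CPM, against at most 13.8 in any other library. Of these reads 1998 were of miR-143-3p and only 11 of miR-145a-5p. The library also had the highest sum of the 6 epithelium and skin markers, 59.8 CPM. Its miR-10a-5p level, 863 CPM, was by contrast place 34 of 40. Without it the 12-month mean of miR-10b-5p was 65.9 ± 27.0 (SD, n = 9), and the estimate from 12 to 16.5 months turned from −0.15 to 0.08, while that from 12 to 13.5 months went to −0.09 and that from 12 to 15 months to 0.57. For miR-10a-5p the estimate from 12 to 16.5 months without this library was 0.67.

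The summed smooth muscle and stroma markers also moved with miR-10b-5p among the other libraries. miR-145a-5p had a median of 10 reads or less, so the sum does not show that both markers did so. Over all 40 libraries the correlation of the summed level with miR-10b-5p was 0.66 (Pearson, log2 scale), and over the 39 without the library above it was again 0.66. With miR-10a-5p it was 0.09 over 40 libraries and 0.30 over the 39. By age the summed markers ran with medians of 4.46, 3.22, 5.78 and 3.19 CPM in order of age, highest at 15 months and next highest at 12 months, as were the medians of miR-10b-5p. The endothelial and platelet list had a correlation of 0.39 with miR-10b-5p, and the skeletal muscle list 0.32, with 2 of its 3 markers at 0. For the remaining lists it was 0.22 (red cell), 0.21 (epithelium and skin), 0.02 (liver), −0.20 (lymphoid) and −0.22 (myeloid). The points share library depth and the composition of blood. No marker of the smooth muscle and stroma, endothelial and platelet or skeletal muscle lists passed the main filter. The part of any list in the level of miR-10b-5p was not tested.

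**Figure D2:**
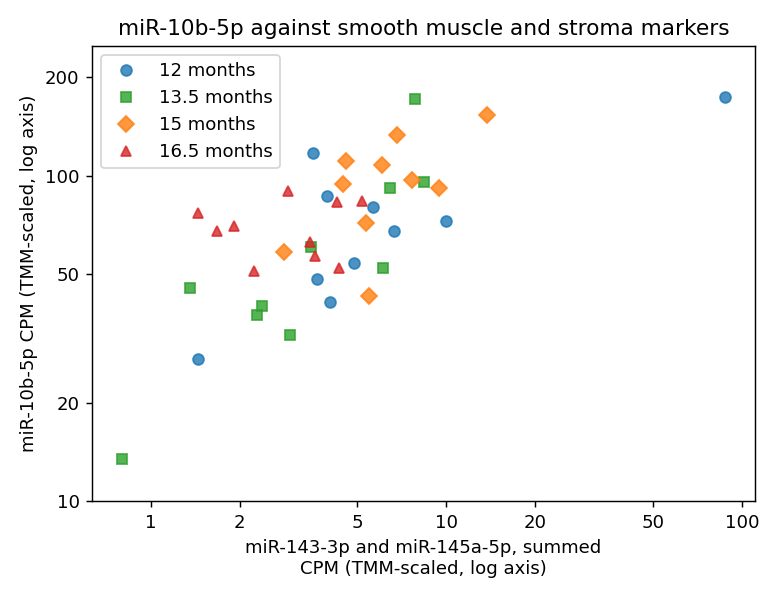
miR-10b-5p against the summed level of miR-143-3p and miR-145a-5p in 40 libraries, both in TMM-scaled CPM on log axes, with symbols by age. The points rise together (r = 0.66), and a single 12-month library lies far to the right at 87.4 CPM of the markers and 175 of miR-10b-5p.

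The ratio of the 2 members within a library is free of scaling, since any factor for depth cancels. Both strands have the same length and differ at 1 base, so the ratio compares like with like. The lowest, median and highest folds of miR-10a-5p over miR-10b-5p spanned 4.94 to 57.1 over all libraries, with medians of 15.6 at 12 months, 26.5 at 13.5 months, 13.0 at 15 months and 24.8 at 16.5 months. On the log2 scale the means were 3.81 ± 0.81, 4.44 ± 0.83, 3.69 ± 0.48 and 4.44 ± 0.46 (SD, n = 10 each).

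miR-10a-5p outnumbered miR-10b-5p in every library, and the ratio did not move steadily with age. All 10 libraries of 15 months lay below the 13.5-month mean of the log2 ratio. From 15 to 16.5 months the ratio was higher: 9 of 10 libraries lay above the 15-month mean and 6 above the highest 15-month library. Against 12 months, 9 of 10 libraries of 16.5 months lay above the mean and 3 above the highest. The library with the high stroma markers had the lowest log2 ratio of its age, 2.30, and without it the 12-month mean was 3.97 ± 0.66 (SD, n = 9).

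**Figure D3:**
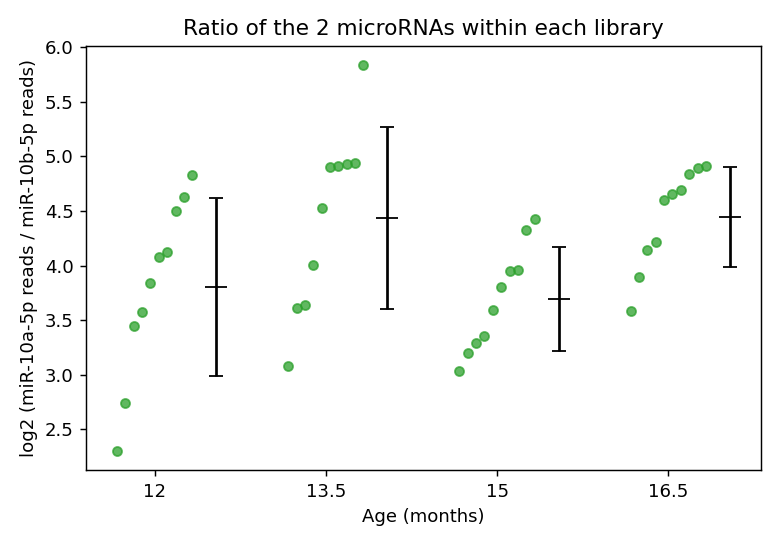
log2 ratio of miR-10a-5p to miR-10b-5p reads in each of the 10 libraries of every age, from 12 to 16.5 months, with the mean and SD in black. The means lie at 3.81, 4.44, 3.69 and 4.44, and the ranges of all 4 ages overlap.

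The opposite arms of both hairpins, the strands usually discarded when the duplex is loaded, were nearly absent. miR-10a-3p had 57 reads in all, 0 to 5 per library and at least 1 in 27 of 40 libraries, against 545001 reads of miR-10a-5p. That is 0.0105% of the reads of the hairpin (exact 95% binomial interval 0.00792% to 0.0135%, counting error only), or 9561 reads of the 5p arm for each of the 3p arm. By age the share was 0.00994%, 0.0130%, 0.0107% and 0.00881%, with overlapping intervals, so a change over age in the use of the arms was not detectable at this depth. miR-10b-3p had 2 reads, both at 12 months, against 32380 of miR-10b-5p. Neither 3p arm passed even the lower count filter, and they were counted only.

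Of the 5 relatives, miR-99a-5p, miR-99b-5p, miR-125a-5p and miR-125b-5p passed the main filter, and 1 of these 4, miR-99b-5p, was called over age (adjusted p = 0.002085, edgeR), beside 61.0% of all microRNAs tested. miR-99b-5p, encoded in a cluster with let-7e and miR-125a, ran at 134, 203 and 279 CPM (lowest, median and highest) at 12 months, 193, 264 and 385 at 13.5 months, 151, 217 and 287 at 15 months and 88.1, 155 and 239 at 16.5 months. Its highest age was 13.5 months, from which it fell by 0.71 to 16.5 months on the log2 scale (SE 0.16, adjusted p = 0.0003599). It rose by 0.42 from 12 to 13.5 months (SE 0.16, adjusted p = 0.04136), a call lost under 5 of the 12 alternatives. From 12 to 16.5 months, where the miR-10a-5p estimate was 0.68, the estimate of miR-99b-5p was −0.29 (SE 0.16, adjusted p = 0.1894). The difference between these 2 changes was not tested.

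miR-125b-5p, transcribed from a pair of hairpins, fell by 0.66 from 13.5 to 16.5 months (SE 0.24, adjusted p = 0.02461), and miR-99a-5p fell by 0.60 from 13.5 to 15 months (SE 0.24, adjusted p = 0.03608), the latter lost under 7 of the 12 alternatives. miR-125a-5p passed in no contrast (over age, adjusted p = 0.6317). At 16.5 against 13.5 months 2 of the 4 relatives tested were thus called, both lower, where 40% of all microRNAs tested were called in either direction. The estimates of the others were −0.14 (SE 0.23) for miR-99a-5p and 0.03 (SE 0.25) for miR-125a-5p. The median over all 105 microRNAs tested was 0.02. The share of all microRNAs called lower is not given, so the count is not read as a change of the family. At 16.5 against 12 months none of the 4 was called.

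miR-100-5p, which differs from miR-99a-5p by U16A, was too low for the main filter and was taken from the fit with the low filter, more than 1 read in 50% of libraries, where 39.1% of 345 microRNAs were called over age and 13.9% at 16.5 against 12 months. Its lowest, median and highest counts were 6, 68 and 606 at 12 months and 0, 8.5 and 23 at 16.5 months. It fell by 2.76 between these ages (SE 0.63, adjusted p = 0.004322, edgeR), and by 2.26 without the library of high stroma markers (SE 0.59, adjusted p = 0.01204), which held the 606 reads. Over age its adjusted p was 0.0004545. Among the other listed microRNAs encoded in Hox clusters, miR-196a-5p had 0 reads in all 40 libraries, miR-615-3p had 0 to 5 reads per library, and miR-196b-5p had 0 to 16 and an adjusted p over age of 0.4066 in the low filter fit. The 2 members were thus the only listed Hox cluster microRNAs that passed the main filter.

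**Figure D4:**
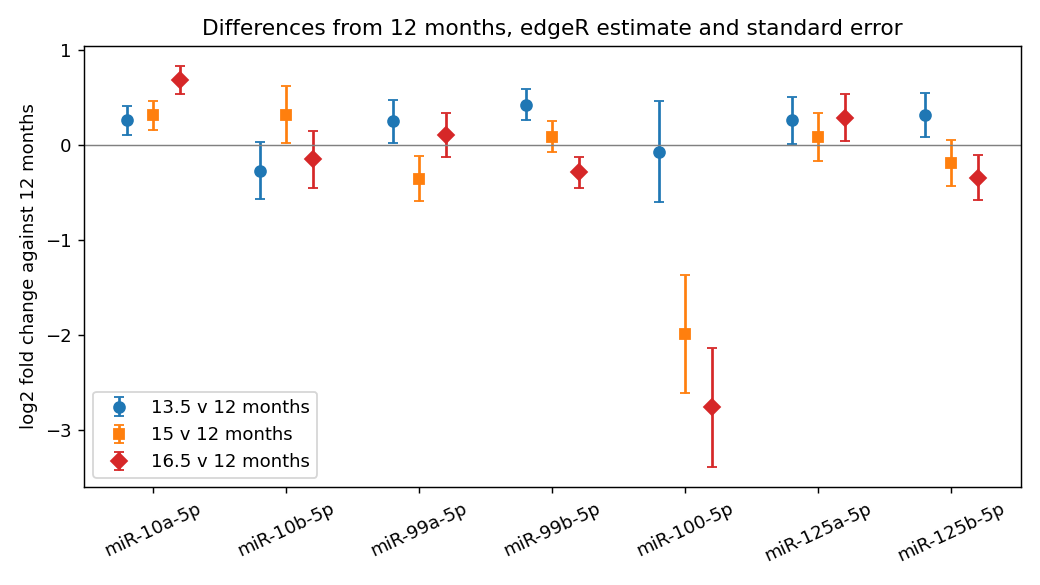
edgeR log2 fold change against 12 months (y axis) with its standard error for the 2 members and 5 relatives (x axis) at each later age; miR-100-5p comes from the fit with the low filter. At 16.5 months miR-10a-5p lies at 0.68, miR-99b-5p at −0.29 and miR-100-5p at −2.76.

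The microRNAs whose levels over the 40 libraries were most like those of miR-10a-5p, by Pearson's r of log2 CPM, were miR-186-5p (0.64), miR-23a-3p (0.64), miR-146a-5p (0.63), miR-27b-3p (0.59) and miR-151-5p (0.55). miR-146a-5p is known as a brake on inflammatory signalling through TRAF6 and IRAK1. None of these 5 was among the nearest 5 once each age's mean was removed, although miR-186-5p, miR-23a-3p, miR-146a-5p and miR-27b-3p then had an r of 0.63 to 0.66 and miR-151-5p one of 0.42. For miR-10b-5p the nearest were miR-182-5p (0.51), miR-30e-3p (0.51), miR-27b-3p (0.49), miR-30a-5p (0.40) and miR-148a-3p (0.39), of which 2 were among the nearest 5 without the age means, where miR-30a-5p had an r of 0.19. The members themselves were only loosely alike, with an r of 0.28 that put miR-10b-5p at place 32 of the list of miR-10a-5p. When microRNAs down to the low filter were included, miR-143-3p, already part of the summed stroma markers above, came first for miR-10b-5p (0.67). These correlations are descriptions over libraries that share depth, composition and mice.

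Scaling decided the direction at 15 months. Dividing by library totals alone, the median over all 105 microRNAs moved to −0.84 from 12 to 15 months and to 0.65 from 15 to 16.5 months, and miR-10a-5p then stood at −0.45 and 0.99. Relative to those medians its values were 0.39 and 0.34, near the TMM values of 0.37 and 0.32 taken relative to the TMM medians. From 12 to 16.5 months the estimate of miR-10a-5p stayed positive under all 12 alternatives, between 0.54 and 0.77. That of miR-10b-5p lay between −0.29 and 0.08.

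**Figure D5:**
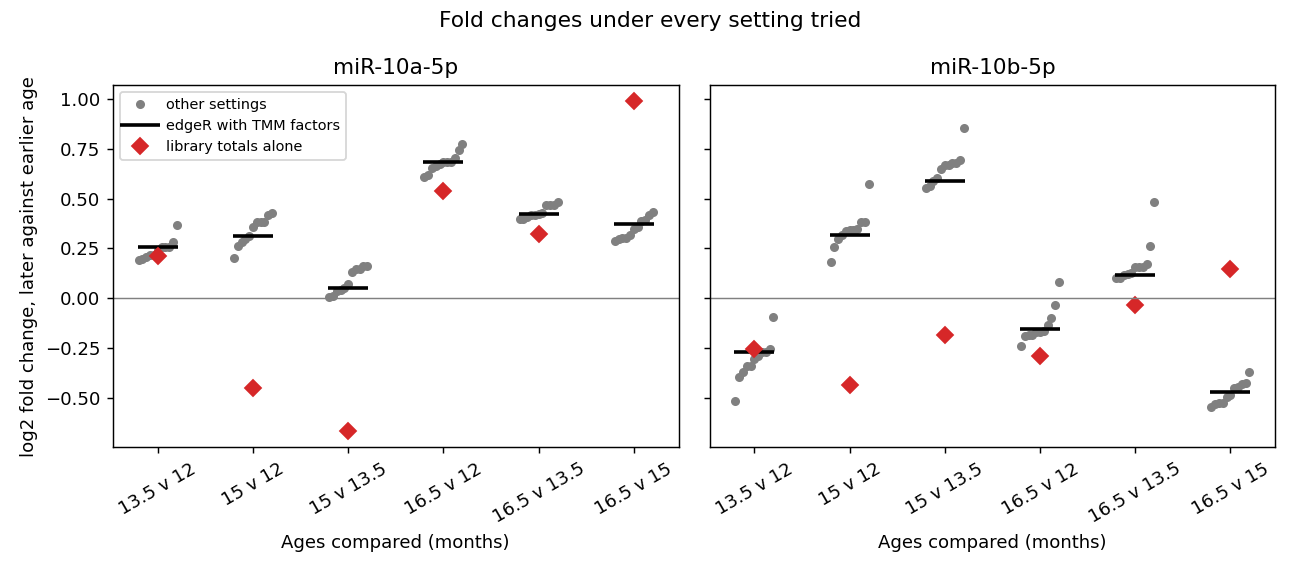
log2 fold change of miR-10a-5p and miR-10b-5p for 6 pairs of ages (x axis) under TMM factors (black line), library totals alone (red diamonds) and the other settings tried (grey points). Library totals set the 15-month comparisons apart, while the 16.5 against 12 month values of miR-10a-5p all lie between 0.54 and 0.77.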

How the data were processed

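Small RNA of total blood was sequenced from 40 libraries. Per the study's methods, the authors trimmed adapters with cutadapt, left out reads under 18 bases and counted reads per mature microRNA with miRDeep2 against miRBase, allowing 0 mismatches; the labels name FastQC 0.11.5 and build mm10. The deposited table used here holds raw counts for 1915 rows, and the deposited table of normalized signal was not used for any value. Counts of reads from several locations were summed, so copies of a hairpin are not separated.

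Libraries were grouped by the age in their labels; column names give the age but not the labels' replicate number. MicroRNAs with more than 100 reads in 50% of libraries (105 rows) entered edgeR 4.0.16 (R 4.3.3; TMM factors, quasi-likelihood F-test over all 4 ages, Benjamini-Hochberg adjustment over all rows tested). Levels are CPM, counts scaled to a common library size with TMM factors, with a prior count of 2 on the log2 scale, and 0.5 was added to counts in the log2 ratio. Alternatives used DESeq2 1.42.0, limma 3.58.1, other scalings, filters and sets of libraries. The fit was tested on simulated data. No libraries within an age agreed within sampling noise (smallest chi-square per degree of freedom 19.37 over 180 pairs).

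The members and all lists were chosen with earlier results of these data known. Named were the members, their 3p arms, the listed relatives and Hox cluster microRNAs, the 5 microRNAs most like each member, and tested cell type markers. Repeated blood of the same mice is not paired in the fit, so p-values treat libraries as independent.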

Additional observations from a re-analysis of the deposited data

Results flagged for a closer look

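In 3 of the 40 groups of 10 libraries put to Dixon's test a single library lay beyond the 95% critical value, where chance gives about 1 in 20. The share of miR-10b-5p in the reads outside miR-486 was 0.356% in the highest 12-month library, the one with the high stroma markers, against 0.198% in the next. At 13.5 months the highest library held 0.324% and the next 0.171%. miR-99a-5p was lowest in a 16.5-month library, at 1.31 log2 CPM.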

How the results depend on the processing

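Of 373 values recomputed, 306 kept their direction and call or stayed within the spread between libraries, 12 lost their call, 55 moved and 0 reversed a call. With library totals alone, miR-10a-5p stood at −0.45 from 12 to 15 months, −0.66 from 13.5 to 15 and 0.99 from 15 to 16.5, and miR-10b-5p at −0.43 from 12 to 15, −0.18 from 13.5 to 15, 0.15 from 15 to 16.5 and −0.03 from 13.5 to 16.5; the median of all microRNAs was then −0.84, −0.81, 0.65 and −0.16 for these 4 pairs of ages.

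The counts in this paragraph show only how the calls of the members depend on the setting. The share of all microRNAs called is not given for each setting, so nothing about the members is read from them. Of the 2 members, the number called over age was 0 without a filter and 2 with limma voom. It was 1 from 12 to 13.5 months with 1 factor of unwanted variation, and 1 from 12 to 15 months with that factor, without the miR-486 rows and with only the ages compared. From 13.5 to 15 months it was 1 with library totals, where the member was miR-10a-5p, at −0.66. It was also 1 with DESeq2, limma voom and without the library of high stroma markers. In these 3 the member was miR-10b-5p, at 0.68, 0.85 and 0.67. From 12 to 16.5 months it was 0 with library totals, and from 13.5 to 16.5 months 0 with library totals, the low filter and no filter. From 15 to 16.5 months it was 1 with library totals, the factor, limma voom, only the ages compared and without the library of outlying connectivity. The member was miR-10a-5p in 4 of these settings and miR-10b-5p in 1.

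Of the 4 relatives, the number called over age was 4 with library totals, 3 with the factor and 2 with limma voom or without the library of outlying connectivity. From 12 to 13.5 months it was 0 with median-ratio factors, library totals, the low filter, no filter and DESeq2, and from 12 to 15 months 4 with library totals. From 13.5 to 15 months it was 4 with library totals and limma voom, 3 with the factor, and 0 with median-ratio factors, both other filters, DESeq2, without the miR-486 rows and without the library of high stroma markers. From 15 to 16.5 months it was 3 with library totals and 1 with median-ratio factors, the factor, DESeq2, only the ages compared, without the miR-486 rows and without the library of high stroma markers. The share of all microRNAs called is not given for each setting, so nothing about the relatives is read from counts under other settings. With library totals the median log2 fold change of all microRNAs tested was −0.84 from 12 to 15 months. It was −0.81 from 13.5 to 15 months and 0.65 from 15 to 16.5 months. The cause of the shifts in the counts of relatives called was not tested.

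Column names repeat 10 numbers, once per age, whose meaning is not stated. Of 60 pairs with the same number 24 had a correlation of deviations over 0.1, the lowest was −0.87, and 6 of 40 libraries lay closest to their own number. The median correlation was −0.028 for pairs with the same number and 0.008 for other pairs between ages. The numbers were not used for pairing, since nothing states that they mark mice. These correlations cannot exclude that they do, because differences between libraries could hide a likeness of the same mouse. With that number as a replicate block, 0 relatives were called from 13.5 to 15 months and 1 from 15 to 16.5 months, and miR-10a-5p stood at 0.66 from 12 to 16.5 months. The block and the fit without the library of high stroma markers were chosen after seeing the data.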
